A study of Mus musculus with 18 samples.

Results

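Immediate early genes are switched on within minutes of a signal, without new protein synthesis, and inducible heat shock genes answer unfolded protein in a similar way. Both kinds also respond to the enzymes and handling that free cells from a tissue. The 33 genes described here were chosen by name as members of these 2 programs, among 27179 genes counted. The rule itself used no measured value, but the genes were chosen with earlier results of these data known. They were 7 subunits of the AP-1 transcription factor, 6 factors of the EGR and NR4A families, 9 IER, KLF and small MAF factors, 7 feedback regulators and 4 heat shock genes. All 33 were found and all 33 passed the filter on low counts.

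Messenger RNA was sequenced from 3 cell populations that had been sorted from mammary glands of female mice aged 14 weeks: basal cells, luminal progenitors (LP) and mature luminal cells (ML). Basal cells form the contractile outer layer of the ducts, LP give rise to milk-secreting cells, and ML cells carry the hormone receptors. Each population came from 3 Brca2 knockout (KO) mice and 3 wildtype (WT) mice, giving 18 libraries in 6 groups of 3, with 1 library per mouse and population. KO mice carried MMTV-cre (T/+), with Brca2 deleted on both chromosomes (delta/delta) and Trp53 on one (delta/+). Cre in these mice is driven by the MMTV promoter, which is active in mammary epithelium and not in every cell of it. Sample names call the KO libraries knockdown, and the strain entry names the floxed alleles and MMTVcre for the WT libraries too. Whether the WT mice carried Cre, whether they were littermates, and how long each gland was handled before sorting was not stated in the labels.

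In resting cells, growth factors, cytokines and stress act through the MAP kinases on factors that are already present, such as SRF with its ternary complex partners and CREB. These factors turn on Fos, Jun, Egr and Nr4a genes, whose products then regulate a later set of targets. The same signals induce their own brakes: DUSP phosphatases remove phosphate from the MAP kinases, SOCS3 blocks cytokine receptors and ZFP36 destabilises short-lived messenger RNA. Heat shock genes follow a separate route, in which HSF1 is released from chaperones when unfolded protein accumulates.

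Total counts ran from 5.97 M to 39.19 M per library. LP WT (9.29 M to 16.17 M) and LP KO (22.42 M to 32.72 M) did not overlap in depth. Trp53 was lower in KO in all 3 populations, with a log2 fold change of -1.72 in basal libraries, -3.60 in those of LP and -1.57 in those of ML (edgeR adjusted p 0.0034, 5.3e-06 and 0.0023). Brca2 overlapped between genotypes in each population. For both genes, counts summed over the whole gene do not check a deletion of part of it. The labels give Trp53 as delta/+, and whether the size of its fall goes with that genotype was not tested. Summed marker levels followed the labelled populations. Basal markers ranged from 16580 to 26100 CPM (reads of a gene scaled to the library total) in basal libraries and from 115 to 1046 in the others, and immune markers reached at most 56.6 CPM, with the leukocyte gene Ptprc at 0 to 1.09 CPM. Fibroblast markers were at 2042 to 4061 CPM in basal WT and 2166 to 2580 in basal KO. They were at 42.5 to 79.9 in LP WT, 75.3 to 175 in LP KO, 58.6 to 273 in ML WT and 227 to 470 in ML KO. Their part in the comparisons below was not tested. In sorted bulk RNA a lower level in fewer cells and less RNA per cell cannot be told apart.

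Promoter sequence was at hand for 28 of the 33 genes, from 250 bases before to 50 bases after each RefSeq start (GRCm38.p6). Egr1, Egr3, Fosl1, Ier2 and Klf10 had no entry. The CArG box, which binds SRF, was searched on both strands as 2 C, then 6 bases of A or T, then 2 G. It was found in Egr2, Zfp36 and Dusp5, 3 of 28 genes (10.7%), against 1.78% of all 18458 genes with a window. The search covered only this window and these exact letters, so the absence of a match, as for Fos, does not show that a gene lacks a box. Egr2 and Dusp5 were among the genes higher in KO ML cells and Zfp36 among those lower in KO LP. Members without a box in the window were called too, such as Nr4a2 and Dusp6 in ML and Fosb and Jun in LP. A link between the box and the calls was not tested. The sites are shown in capitals with their flanks in lower case, on the strand of the gene.
Zfp36: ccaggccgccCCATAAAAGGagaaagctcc
Egr2, first site: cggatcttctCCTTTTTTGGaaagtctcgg
Egr2, second site: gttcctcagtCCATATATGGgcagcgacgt
Dusp5: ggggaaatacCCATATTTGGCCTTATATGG
The Zfp36 site lies at chr7:28379267-28379296 on the minus strand, 58 bases before the start. The Egr2 sites lie at chr10:67537484-67537513 and chr10:67537787-67537816 on the plus strand, each 72 bases before an annotated start of that gene. In Dusp5, at chr19:53529053-53529082 on the plus strand, 2 CArG boxes sit end to end without overlap, 82 and 72 bases before the start.

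The cyclic AMP response element TGACGTCA, bound by CREB, was found in Dusp1 and Maff, 2 of 28 genes (7.14%), against 2.56% of all genes. In Maff it lies 29 bases before an annotated start, and Maff was not called between genotypes in any population. In Dusp1 it lies 143 bases before the start at chr17:26508597-26508626 on the minus strand. The Dusp1 site is shown because Dusp1 is 1 of the 3 phosphatase genes higher in KO ML cells.
Dusp1: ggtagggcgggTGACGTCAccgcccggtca
The AP-1 site TGANTCA was found in 0 of 28 genes against 8.36% of all genes. The core of the heat shock element, GAANNTTC, was found in 5 of 28 genes (17.9%) against 8.35% of all: Hspa1a, Hspa1b, Hsph1, Jun and Fosl2. Hspa1a and Hspa1b encode nearly the same inducible HSP70 chaperone from neighbouring genes, and the stretches around their heat shock elements are shown for comparison.
Hspa1a: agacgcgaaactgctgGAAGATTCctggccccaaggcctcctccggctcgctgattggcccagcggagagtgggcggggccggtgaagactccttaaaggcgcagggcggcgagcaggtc
Hspa1b: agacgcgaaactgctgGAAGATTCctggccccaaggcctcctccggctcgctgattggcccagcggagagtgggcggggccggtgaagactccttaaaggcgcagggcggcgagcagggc
These stretches cover the 120 bases before each start, at chr17:34972157-34972276 and chr17:34959239-34959358 on the minus strand, with the heat shock element in capitals. They differ at 1 of 120 positions, and the 250 bases before the starts differ at 3. In the GENCODE vM21 transcripts, 1716 of the 2918 stretches of 50 bases of Hspa1a (58.8%) and of the 2754 of Hspa1b (62.3%) also occur in the other gene. No label says how reads from such stretches were counted, and the counts of both genes are given as uncertain. A match to these letters is a description of the window and not a measured binding site. As for the CArG box, the absence of a match to these exact letters does not show that a gene lacks a site. This holds for the AP-1 site and the heat shock element too.

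Levels are CPM after TMM scaling (a scaling to a common composition), and levels of different genes are compared as CPM per kilobase of gene length. Per kilobase, Fos was the highest of the 33 genes in basal WT, LP WT, ML WT, basal KO and ML KO. In LP KO, Hspa1b, whose counts are uncertain, came first at 824 ± 253 and Fos next at 807 ± 171 (mean ± SD). These 2 differed by less than either SD. In LP WT the order began with Fos at 3240 ± 1300 CPM per kilobase (mean ± SD, n = 3), Fosb at 2070 ± 1160, Hspa1b at 1750 ± 597 and Klf6 at 1510 ± 544. Neighbours in this order of 4 differed by less than the larger SD of the pair. In ML WT the order began with Fos at 1470 ± 225 and ended with Nr4a3 at 2.06 ± 0.224, Egr3 at 1.35 ± 0.925 and Nr4a2 at 0.206 ± 0.0212, of which Nr4a3 and Egr3 differed by less than the larger SD. In WT mice LP had the highest mean for 19 of the 33 genes, basal cells for 13 and ML cells for 1, Klf2. In KO mice basal cells had the highest mean for 20, LP for 9 and ML cells for 4. These counts rank group means, were not tested and include near ties. Fosl1 was at 186 ± 84.8 CPM in basal WT and 183 ± 102 in LP WT. Junb was at 1300 ± 301 CPM in basal KO and 1260 ± 124 in LP KO.

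**Figure D1:**
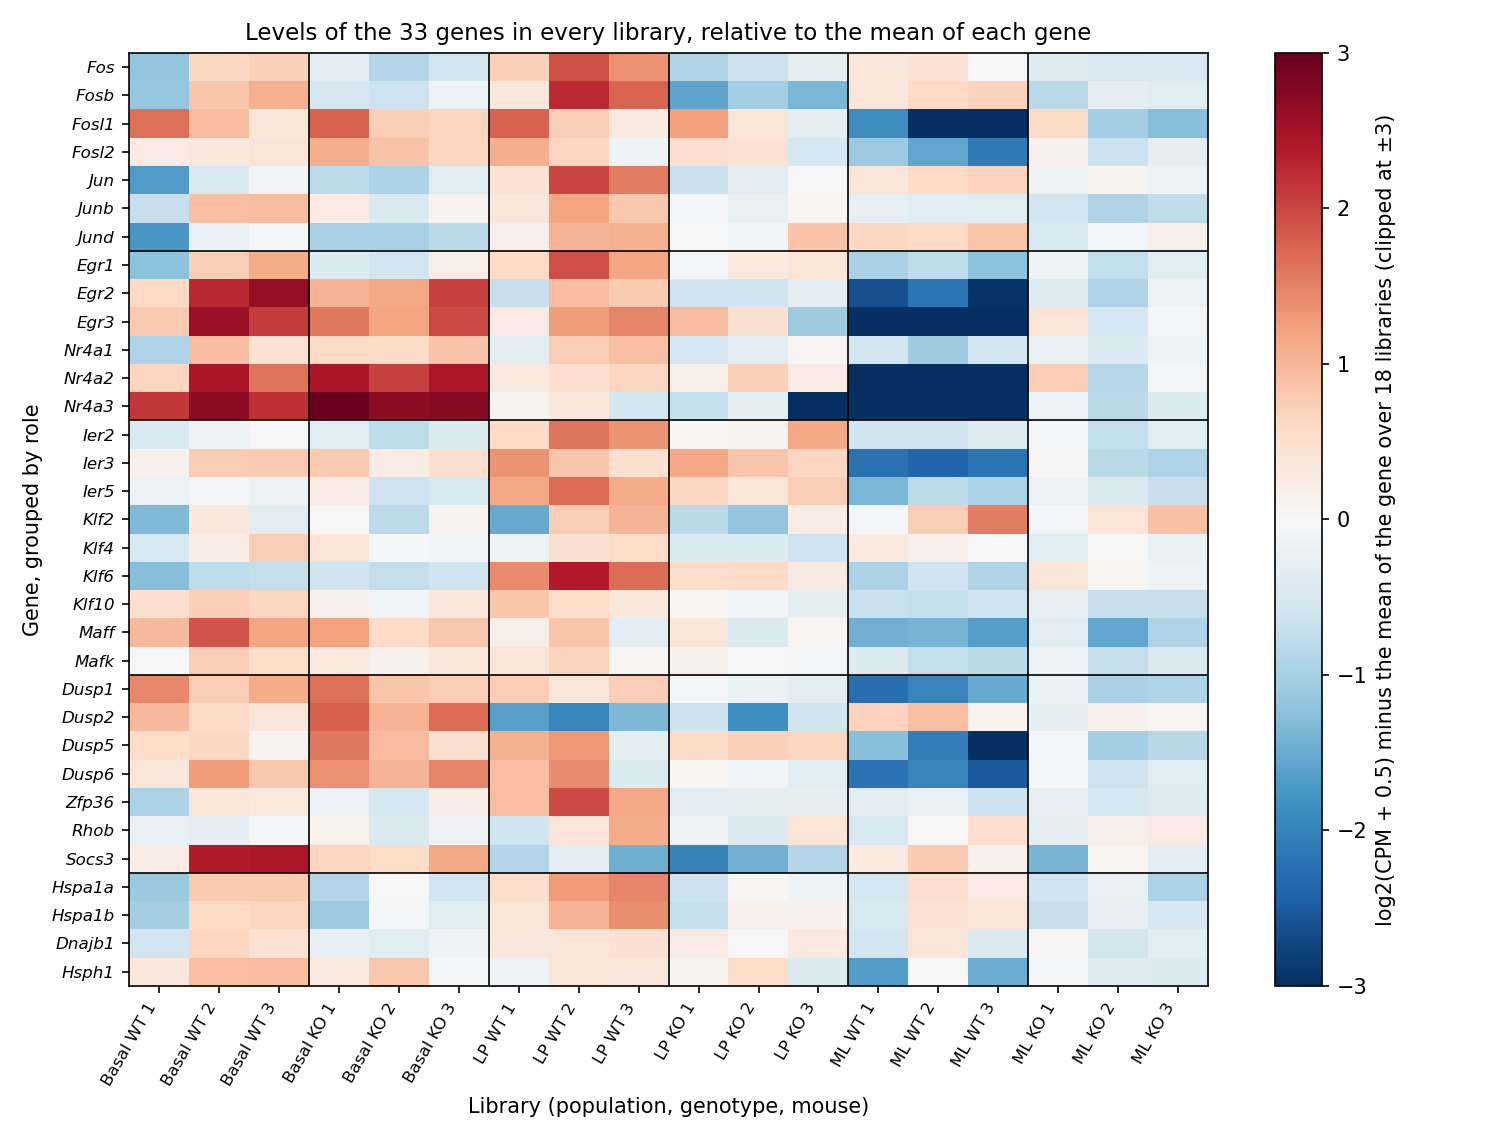
Heat map of the 33 genes (rows, grouped by role) in the 18 libraries (columns, numbered by mouse). Colour is log2(CPM + 0.5) minus the mean of the gene over all libraries, clipped at 3. Egr2, Egr3, Nr4a2 and Nr4a3 are dark blue in the 3 ML WT libraries, and Basal WT 1 is paler or bluer than the other Basal WT libraries for most genes.

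Libraries of basal WT and of LP WT differed more, by their medians, for these genes than for genes at large. In basal WT the highest library exceeded the lowest by a median of 2.35-fold over the 33 genes, against 1.59-fold over all 13451 genes with a mean of at least 1 CPM there. In LP WT the medians were 2.06 and 1.68. In ML WT they were 1.42 and 1.44, and in the 3 KO groups the members' medians were 1.48 to 1.51 and those of all genes 1.46 to 1.62. The basal WT spread came mostly from 1 library. The library from WT mouse 1 was the lowest of its group for 27 of 33 genes and stood 0.61 below the group mean of log2 CPM on average, while those of mice 2 and 3 stood 0.35 and 0.26 above it. Egr1, a zinc finger factor, varied most there, at 641, 2512 and 3269 CPM in WT mice 1, 2 and 3. Fosl1, Dusp1 and Dusp2 went the other way and were highest in the library from mouse 1. In LP WT the library from mouse 2 was the highest for 17 genes and that from mouse 1 the lowest for 20. The library from KO mouse 2 was the lowest for 23 genes in basal KO, and that from KO mouse 1 the highest for 21 genes in ML KO.

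Libraries of the same mouse tended to deviate together. Across the 33 genes, the deviations from the group mean in 2 populations of WT mouse 1 correlated at 0.65 between basal cells and LP, 0.62 between LP and ML and 0.39 between basal cells and ML. Over all 18 pairs of libraries of a mouse the values ran from -0.15 to 0.65 for these genes, and from 0.09 to 0.33 over all genes. Points of such a correlation are genes, which are not independent, and share a mouse and 2 libraries.

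In LP, the first question was whether the KO genotype, as labelled, went with a change in these genes. 7 of the 33 genes were lower in KO and 0 were higher (edgeR quasi-likelihood test, Benjamini-Hochberg adjusted p under 0.05), against 6.63% of all 16466 tested genes lower and 8.28% higher. 32 of 33 log2 fold changes were negative, with a median of -0.76, against 0.02 over all tested genes, and 18 genes had an unadjusted p under 0.05, against 30.5% of all genes. No KO library reached the lowest WT library for 14 genes, and the reverse held for 0, against 13.4% and 17.7% of all genes. The 33 genes share the same libraries and mice, here and in the other populations, so such counts do not rest on independent genes.

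Among AP-1 subunits, Fosb, Fos and Jun were lower. Fosb, the FOS relative with the largest fall, was at 3153, 11840 and 8430 CPM in LP WT and at 838, 1242 and 974 in LP KO, mice 1 to 3 in order. The highest KO library was below the lowest WT library, and WT mouse 2 was the highest. The log2 fold change was -2.94 ± 0.47 (SE), or 7.67-fold lower (edgeR adjusted p = 4.7e-04, n = 3 per group). Fos was at 4194, 9601 and 6554 CPM in WT and 1367, 1623 and 2075 in KO, and Jun, the usual partner of FOS in the AP-1 dimer, at 2155, 6368 and 4596 against 994, 1264 and 1586. Neither overlapped between genotypes, and WT mouse 1 was again the lowest WT library for both. Their log2 fold changes were -2.01 ± 0.38 and -1.77 ± 0.37 (adjusted p = 0.002 and 0.0042). The log2 fold changes of Junb, Jund, Fosl1 and Fosl2 were -0.87 to -0.42, with adjusted p of 0.079 to 0.61.

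0 of the 6 EGR and NR4A genes passed the test in LP. Their log2 fold changes ran from -1.11 for Egr1 to -0.09 for Nr4a2, a nuclear receptor without a known natural ligand, and 4 had an unadjusted p under 0.05. Klf6 and Klf10, zinc finger factors of the KLF family, were lower. Klf6 was at 4598, 8959 and 5543 CPM in WT and 2513, 2628 and 2081 in KO, with no overlap and a tighter spread in KO. Its log2 fold change was -1.40 ± 0.27 (adjusted p = 0.0018). Klf10, induced by TGF-beta, was at 627, 513 and 443 CPM in WT and 361, 332 and 294 in KO. It changed least of the 7, with no overlap and a log2 fold change of -0.68 ± 0.21 (adjusted p = 0.032).

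Of the feedback regulators Zfp36 was lower. It was at 1595, 3316 and 1928 CPM in WT and 687, 703 and 700 in KO, so that the KO libraries lay close together while WT mouse 2 was well above the other WT mice. Its log2 fold change was -1.71 ± 0.32 (adjusted p = 0.0017). Dusp1, the MAP kinase phosphatase, and Dusp6, which acts on ERK, had log2 fold changes of -0.81 and -0.94 and adjusted p of 0.063 and 0.068. Dusp2 was the 1 gene of 33 with a positive value, 0.84 (adjusted p = 0.28), at no more than 2.8 CPM in any LP library.

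Of the heat shock genes, Hspa1a was at 1331, 2259 and 2576 CPM in LP WT and 589, 957 and 844 in LP KO, with a log2 fold change of -1.37 ± 0.41 (adjusted p = 0.03). Its near copy Hspa1b had a log2 fold change of -1.09 ± 0.40 (adjusted p = 0.07), also without overlap. Dnajb1, a cochaperone of HSP70, and Hsph1, a nucleotide exchange factor for it, had values of -0.21 and -0.08 (adjusted p = 0.67 and 0.91).

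Fosb, Fos, Jun, Klf6 and Zfp36 were called under all 13 other settings and left-out libraries tried. The call of Hspa1a was lost without LP KO mouse 1 or 3 or LP WT mouse 2 or 3 (adjusted p 0.11, 0.08, 0.094 and 0.084). That of Klf10 was lost without any 1 of LP KO mice 1, 2 and 3 or LP WT mice 1 and 2 (0.055 to 0.12), and also with no filter on low counts (0.059). In a fit of the 6 LP libraries alone 5 were lower, and Hspa1a and Klf10 were lost (0.051 and 0.14). Without LP WT mouse 2, the highest for 17 genes, 5 were lower. DESeq2 called 13 of the 33 lower in LP, adding Junb, Ier5, Klf4, Dusp1, Dusp6 and Hspa1b. With the libraries of all populations thinned to the depth of the smallest, that of ML WT mouse 1, 7 remained lower.

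**Figure D2:**
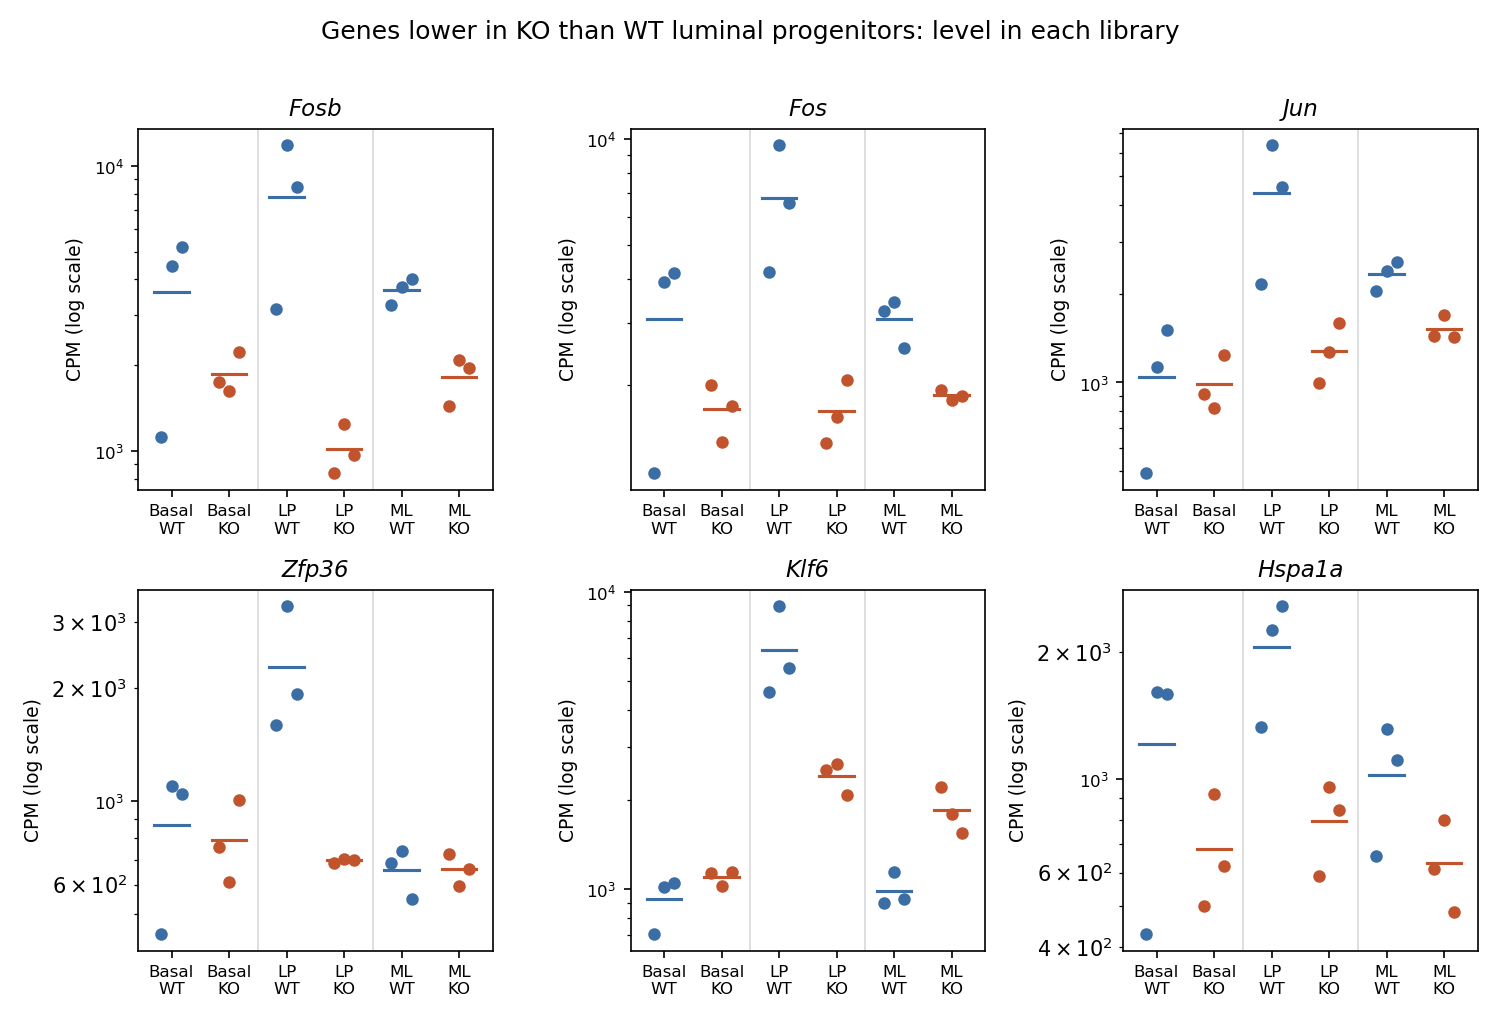
Level of 6 genes in each library, in CPM on a log axis, by population and genotype. Points are mice 1 to 3 from left to right, blue for WT and orange for KO, and lines are group means. In LP all 3 KO points lie below all 3 WT points in each panel.

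In ML cells 11 of the 33 genes were higher in KO and 0 were lower, against 11.8% of all tested genes higher and 3.5% lower. 20 log2 fold changes were positive, with a median of 0.23. The 3 KO libraries were all above the 3 WT libraries for 14 genes and all below them for 7, against 21.6% and 16.2% of all genes. The 11 genes were 4 of the EGR and NR4A factors, 3 feedback phosphatases, 2 AP-1 subunits, Ier3 and Klf6.

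Nr4a2 was at 0.634, 0.667 and 0.77 CPM in ML WT, which rest on 4, 8 and 18 reads, and at 51.2, 16.3 and 28.8 CPM in ML KO. Its log2 fold change was 5.46 ± 0.53, or 44.1-fold (edgeR adjusted p = 4.9e-07, n = 3 per group). Egr3 was at 1.11, 3.42 and 1.2 CPM in WT, resting on 7, 41 and 28 reads, and 63.1, 32.7 and 45.6 in KO, a log2 fold change of 4.61 ± 0.63 (adjusted p = 5.0e-05). For both genes every KO library was well above every WT library, and KO mouse 1 was the highest.

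Nr4a3, a sister receptor of Nr4a2, was at 3.96, 4.25 and 3.42 CPM in ML WT and 36.2, 23.3 and 30.7 in ML KO (log2 fold change 2.96 ± 0.50, adjusted p = 3.1e-04). Egr2 was at 12.7, 17.4 and 10.1 CPM in WT and 62.6, 43.6 and 72.3 in KO (2.16 ± 0.47, adjusted p = 0.0033). The WT libraries of each gene lay close together and below all KO libraries. The remaining family members, Egr1 and Nr4a1, were also above WT in all 3 KO libraries, but with log2 fold changes of 0.59 and 0.46 and adjusted p of 0.37 and 0.42. Egr1 and Nr4a1 were the most abundant of the 6 in ML WT per kilobase, and the 4 that rose were the least abundant.

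Ier3, which protects cells from death signals, was at 94.6, 86 and 97.5 CPM in ML WT and 460, 257 and 235 in ML KO (1.77 ± 0.29, adjusted p = 2.3e-04). Dusp6 was at 76.2, 90.8 and 62.3 CPM in WT and 350, 234 and 277 in KO (1.91 ± 0.35, adjusted p = 6.7e-04). Neither gene overlapped between genotypes, and KO mouse 1 was the highest library for both. Dusp1 was at 106, 129 and 179 CPM in ML WT and 441, 257 and 268 in ML KO. Dusp5, a nuclear ERK phosphatase, was at 80.1, 44.9 and 23 CPM against 185, 94.3 and 108. The KO libraries of both were above all WT libraries, and the log2 fold changes were 1.22 ± 0.29 and 1.40 ± 0.42 (adjusted p = 0.0067 and 0.029). Klf6, which was lower in LP KO, was higher in ML KO, at 2202, 1789 and 1546 CPM against 898, 1141 and 925 (0.90 ± 0.26, adjusted p = 0.024). 

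The AP-1 subunits split. Fosl1 and Fosl2, which encode FRA1 and FRA2, lack the transactivation domain of FOS. Fosl1 was at 23.6, 6.84 and 10.4 CPM in ML WT and 130, 42.9 and 36 in ML KO, and Fosl2 at 259, 188 and 126 against 608, 353 and 459. Both were higher in KO, by 2.40 ± 0.61 and 1.31 ± 0.33 (adjusted p = 0.013 and 0.0096). The other 5 subunits, Fos, Fosb, Jun, Junb and Jund, were below WT in all 3 KO libraries and did not pass the test, with log2 fold changes of -1.01 to -0.40 and adjusted p of 0.13 to 0.45. Fosb was the nearest to the threshold, at 3252, 3778 and 4024 CPM in WT and 1443, 2082 and 1957 in KO. In a fit of the 6 ML libraries alone, Fos, Fosb, Jun and Jund were lower (adjusted p 0.0094 to 0.043), and 10 genes were higher, as the call of Dusp5 was lost (adjusted p = 0.075). 0 of the 4 heat shock genes passed the test in ML, with log2 fold changes of -0.70 to 0.56 and adjusted p of 0.26 to 0.82.

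Nr4a2, Egr3, Ier3, Nr4a3, Dusp6 and Egr2 were called under all 13 other settings and left-out libraries. Without the library from ML KO mouse 1, the highest for 21 genes, 6 of the 33 were higher, and the calls of Dusp1, Fosl2, Fosl1, Klf6 and Dusp5 were lost (adjusted p 0.056 to 0.16). Without ML WT mouse 3, 7 were higher, and Fosl2, Fosl1, Klf6 and Dusp5 were lost. Without ML WT mouse 2, Fosl1 and Dusp5 were lost, and without ML WT mouse 1, Klf6 was.

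**Figure D3:**
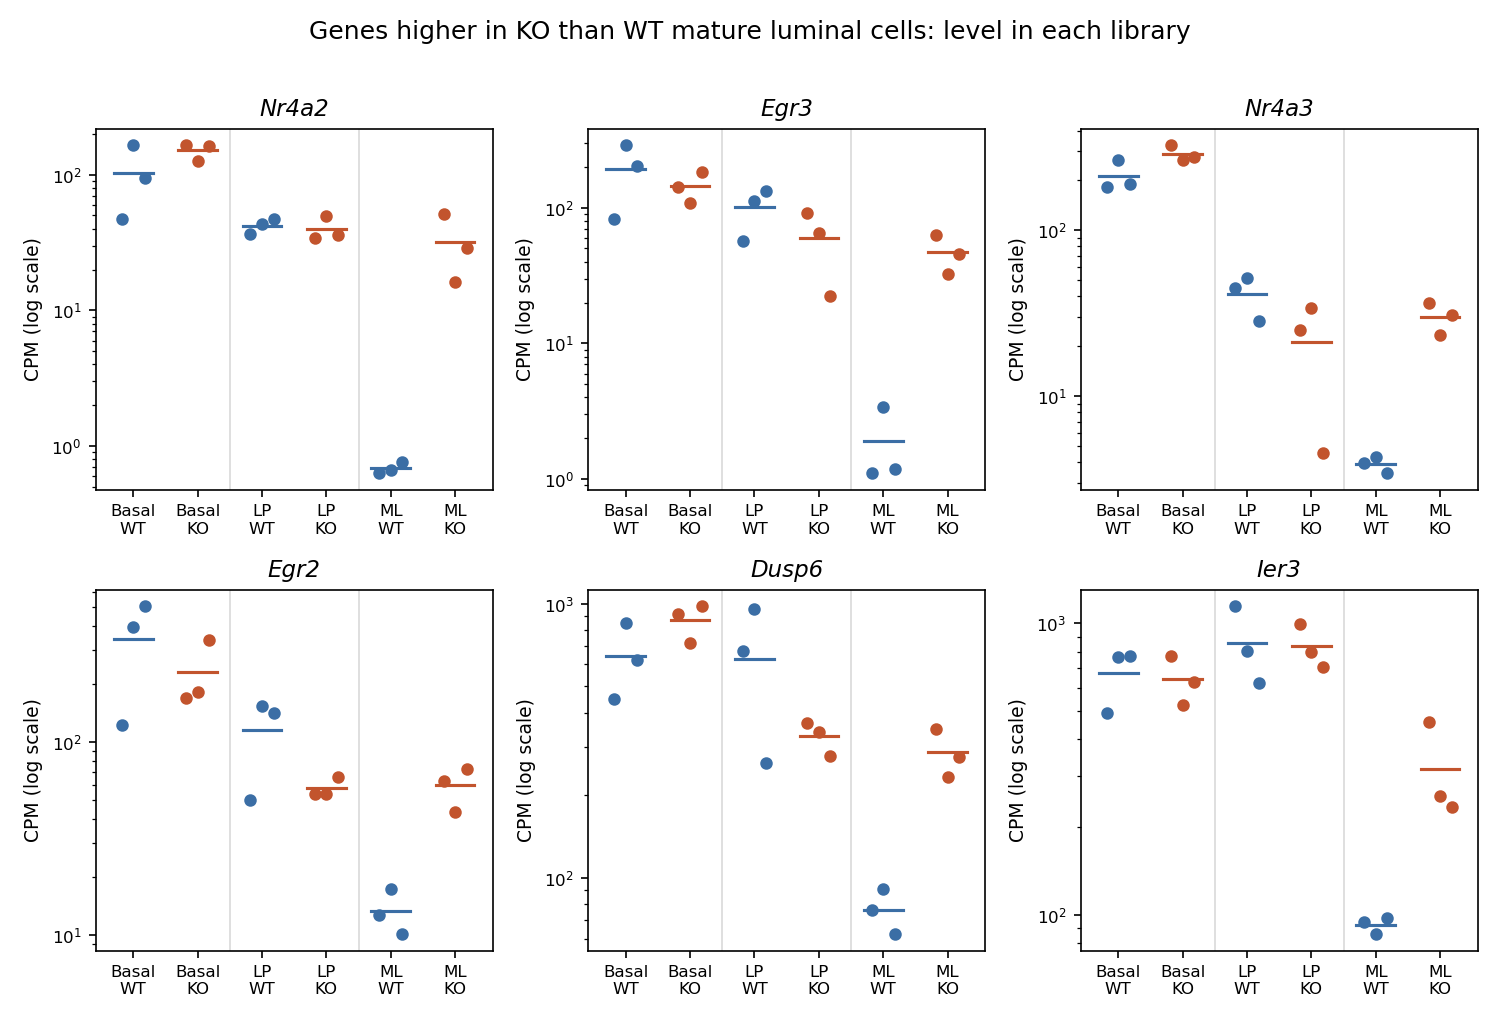
Level of 6 genes in each library, in CPM on a log axis, by population and genotype. Points are mice 1 to 3 from left to right, blue for WT and orange for KO, and lines are group means. The 3 ML WT points are the lowest of each panel, and for Nr4a2 they lie between 0.634 and 0.77 CPM.

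Markers of the populations moved with genotype in ML. Summed basal markers were 115 to 140 CPM in ML WT and 882 to 1046 in ML KO, with 10 of 13 markers higher, among them the keratin gene Krt5. Summed LP markers were 187 to 243 CPM in ML WT and 590 to 2384 in ML KO, with 8 of 11 higher, among them Kit, and KO mouse 1 was the highest. Summed ML markers were 7636 to 10370 CPM in WT and 1793 to 4961 in KO, with 4 of 10 lower, and KO mouse 1 was the lowest. The part of these markers in the higher EGR, NR4A and phosphatase levels was not tested. In basal and LP libraries of WT mice Nr4a2 was at 36.6 to 165 CPM and Egr3 at 56.4 to 289 CPM, far above ML WT. In LP, summed ML markers were 675 to 1013 CPM in WT and 284 to 512 in KO, with 4 of 10 lower, and summed LP markers overlapped between genotypes. The immune marker Csf1r was higher in LP KO by 2.44 on the log2 scale, at no more than 7.54 CPM. The part of these in the lower AP-1 and KLF levels of LP KO was not tested.

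**Figure D4:**
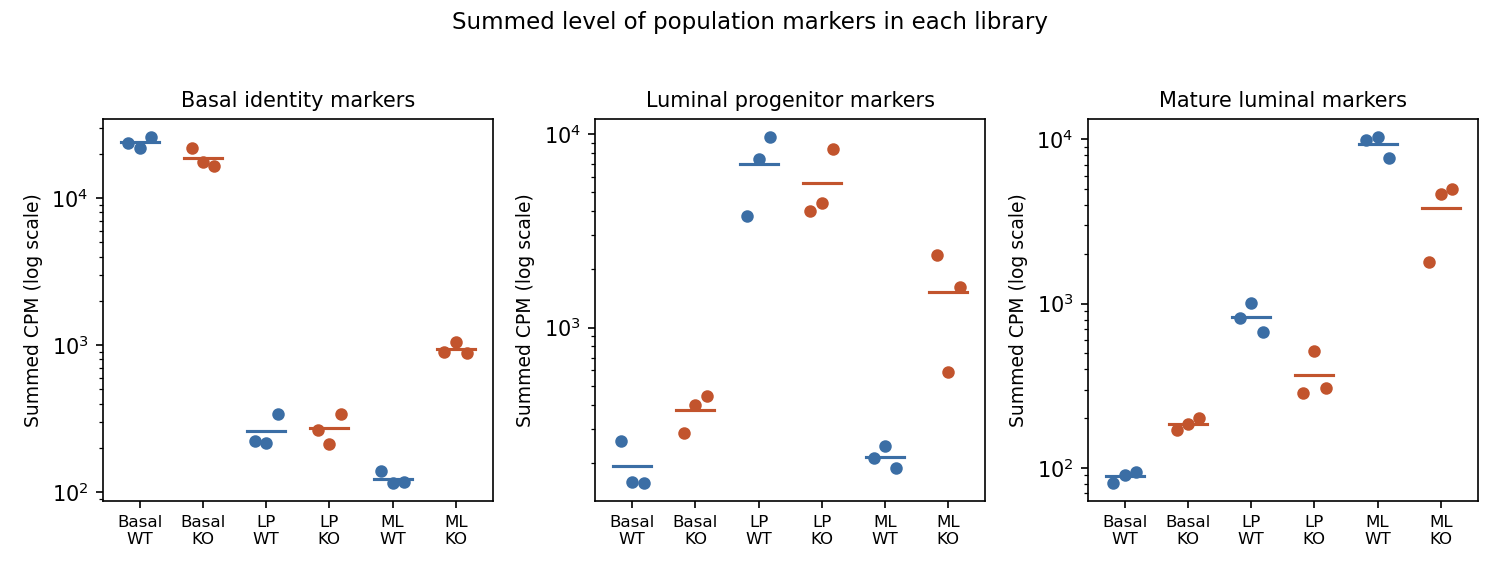
Summed CPM of the basal, luminal progenitor and mature luminal marker lists in each library, on log axes. Points are mice 1 to 3 from left to right, blue for WT and orange for KO, and lines are group means. ML KO libraries lie above ML WT for basal and progenitor markers and below them for mature luminal markers.

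In basal cells 0 of the 33 genes passed the test between genotypes with edgeR and 0 with DESeq2, against 2.96% of all genes higher and 0.188% lower. 5 genes had an unadjusted p under 0.05, against 11.6% of all genes. 22 of 33 log2 fold changes were negative and the median was -0.13. Fosl2 and Dusp2 were above WT in all 3 KO libraries and Klf10 below it, 2 genes and 1 gene, against 10.8% and 6.82% of all genes. Fos was at 1126, 3917 and 4174 CPM in basal WT and 2002, 1381 and 1742 in basal KO, so that the KO libraries lay inside the WT range. Dusp2 was at 9.25, 6.89 and 5.84 CPM in WT and 16.9, 9.75 and 15.5 in KO, and Klf10 at 496, 578 and 547 against 386, 334 and 447. Their log2 fold changes were 0.92 and -0.48 (adjusted p = 0.26 and 0.35). Socs3, the cytokine brake, was at 278, 1241 and 1283 CPM in WT and 372, 349 and 535 in KO. In Fos and Socs3 WT mouse 1 was below all KO mice and the other 2 WT mice were above them. Without the library from basal WT mouse 1, 2 of 33 genes passed the test, Fos at -1.24 and Socs3 at -1.59 (adjusted p = 0.037 and 0.036). Marker sums moved here too and did not overlap between genotypes. ML markers were at 80.8 to 95.0 CPM in basal WT and 170 to 201 in basal KO, LP markers at 157 to 258 and 286 to 443, and basal markers at 21920 to 26100 and 16580 to 21900. The basal sums nearly touched, at 21900 in KO mouse 1 and 21920 in WT mouse 2. Of single markers, 2 of 10 ML and 2 of 11 LP markers were higher in basal KO, and 0 of 13 basal markers passed the test. The part of these markers in these results was not tested.

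**Figure D5:**
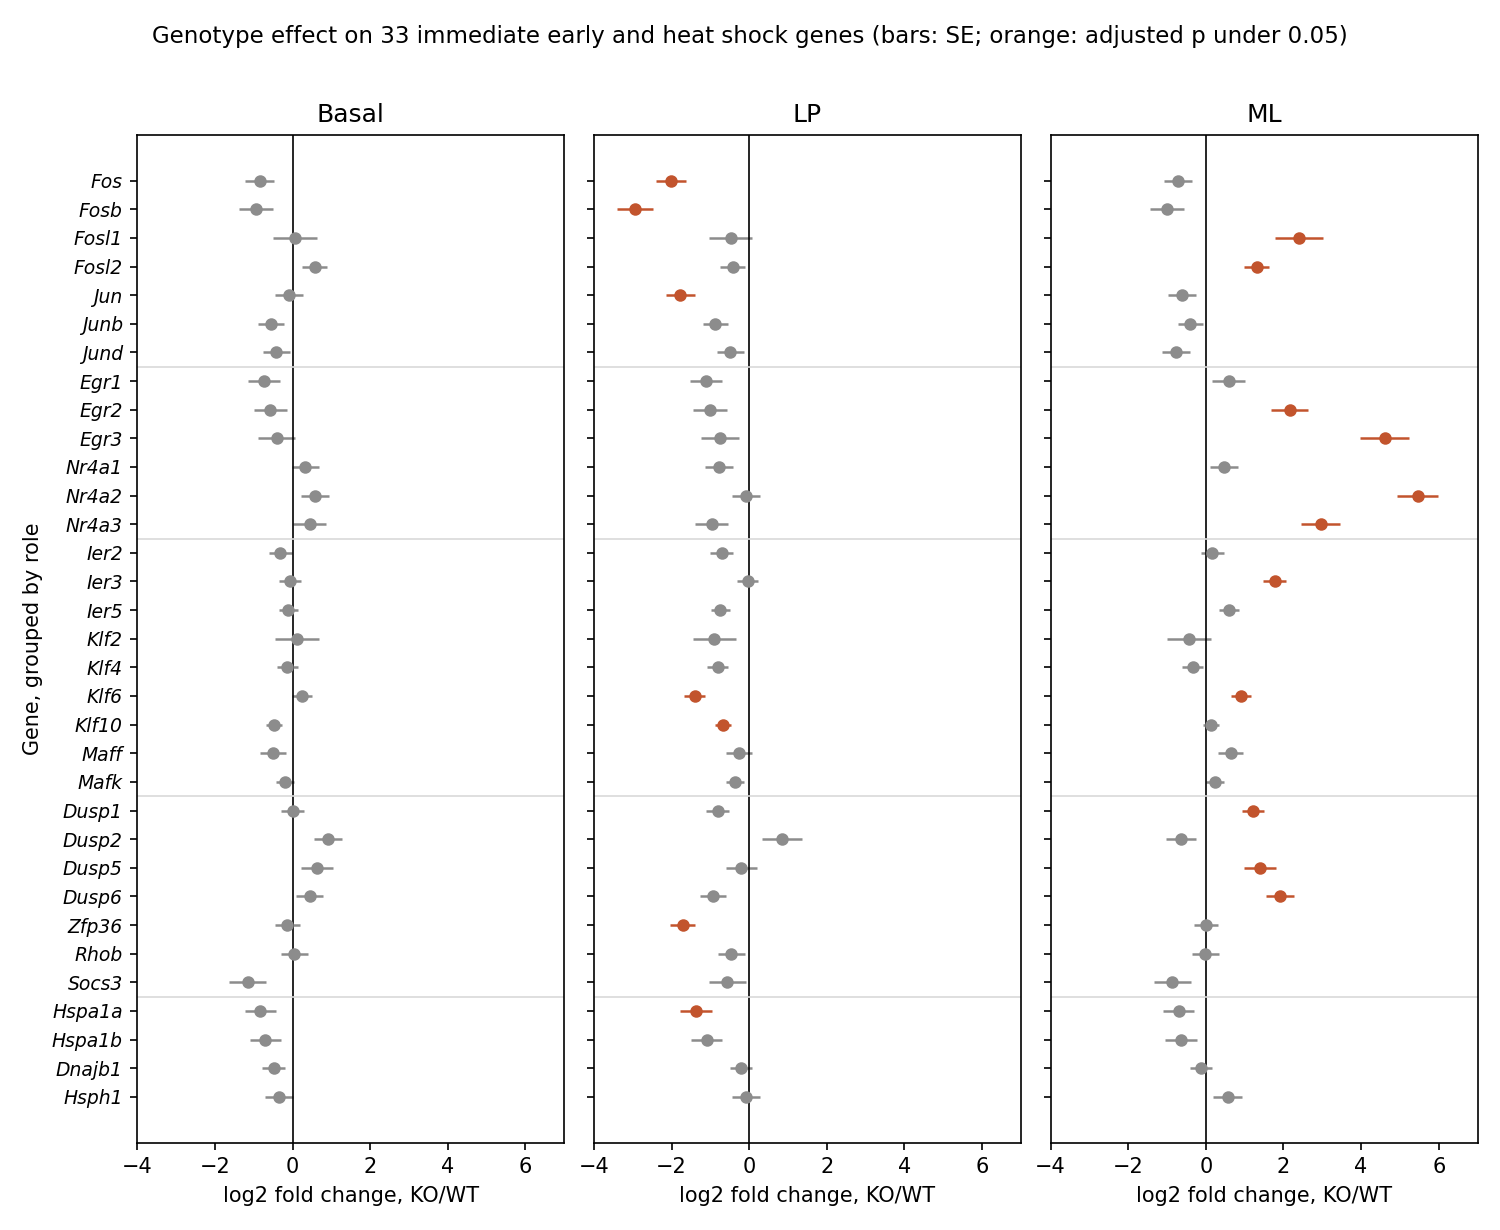
Log2 fold change of KO over WT for the 33 genes in basal cells, LP and ML, with bars of 1 SE, grouped by role from AP-1 subunits at the top to heat shock genes at the bottom. Orange marks an adjusted p under 0.05: 0 genes in basal cells, 7 lower in LP and 11 higher in ML.

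The size of the genotype effect was then compared between populations with an interaction term. LP and ML differed for 12 of the 33 genes, each with a lower value in LP, against 6.37% of all genes in either direction. They were Nr4a2, Egr3, Nr4a3, Egr2, Dusp6, Dusp1, Klf6, Ier3, Zfp36, Ier5, Fosl2 and Fosl1. Klf6 fell in LP and rose in ML, a difference of -2.30 ± 0.37 (edgeR adjusted p = 5.1e-04). Nr4a2 differed by -5.55 ± 0.65 (adjusted p = 1.7e-05). Dusp1, at 857, 657 and 854 CPM in LP WT and 488, 447 and 412 in LP KO, differed by -2.04 ± 0.41 (adjusted p = 0.0038), although its effect in LP alone did not pass the test. For Fosb and Fos the LP effect was the more negative, by -1.93 and -1.29, without passing the test (adjusted p = 0.072 and 0.16).

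Calls of Zfp36, Ier5, Fosl2 and Fosl1 between LP and ML were each lost without at least 1 library, all 4 of them without ML KO mouse 1 (adjusted p 0.056 to 0.14). Zfp36 was also lost without LP WT mouse 2 or ML WT mouse 3, and Ier5 without these or ML WT mouse 1 or LP KO mouse 2. Fosl2 was also lost without LP WT mouse 1 or 2, LP KO mouse 3 or ML WT mouse 2 or 3, and Fosl1 without these or LP KO mouse 2. In a fit of only the LP and ML libraries Fosl2 and Fosl1 were lost (0.067 and 0.069), and Fosl1 also with no filter (0.097) and with thinned libraries (0.063). Between ML and basal cells the effect differed for 5 genes, each with a higher value in ML, against 5.53% of all genes: Nr4a2, Egr3, Ier3, Egr2 and Nr4a3. The call of Nr4a3 was lost without ML KO mouse 1, ML WT mouse 2 or 3, basal KO mouse 2 or 3 or basal WT mouse 2, and with thinned libraries (adjusted p 0.053 to 0.09). Between LP and basal cells it differed for Klf6 alone, by -1.66 ± 0.37 (adjusted p = 0.033), against 1.09% of all genes, and that call was lost in 10 of 19 settings, among them without any 1 of the 6 basal libraries, LP KO mouse 1 or 3 or LP WT mouse 2 (adjusted p 0.054 to 0.12). The 3 interactions and the genotype effects use the same libraries and are not independent of each other.

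Between WT populations, many but not all of the 33 genes were lower in ML cells. In WT ML, 19 genes were lower than in WT basal cells and 2 were higher, against 28.9% and 25.7% of all genes. All 6 EGR and NR4A genes were lower, by a median of -5.24 on the log2 scale. Of the 7 AP-1 subunits 3 were lower and 2 higher, and of the 4 heat shock genes 1 was lower. The largest difference was that of Nr4a2, at 47.2, 165 and 93.6 CPM in basal WT and under 1 CPM in ML WT (-7.15 ± 0.54, adjusted p = 1.2e-09). Nr4a3 was at 182, 267 and 190 CPM in basal WT and 3.42 to 4.25 in ML WT, and Ier3 at 491, 766 and 771 against 86 to 97.5. No library of either gene overlapped between the populations. Dusp1, Dusp5, Dusp6 and Socs3 were the feedback genes that were lower, Dusp1 from 1391, 862 and 1109 CPM in basal WT (-3.02 ± 0.31, adjusted p = 1.1e-07). Jun and Jund were the 2 genes higher in ML, by 1.16 ± 0.37 and 1.19 ± 0.36, the former not without basal WT mouse 1 (adjusted p = 0.064). The call of Egr1 was lost without basal WT mouse 3, that of Nr4a1 without basal WT or ML WT mouse 2, and that of Junb without basal WT mouse 2 or 3 or any 1 ML WT mouse. Junb was also lost in a fit of only the groups compared (adjusted p = 0.061). These comparisons with basal WT include the low library of mouse 1.

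Against WT ML, 22 of the 33 genes were higher in WT LP and 2, Dusp2 and Socs3, were lower, against 17.6% and 16.1% of all genes. All 6 EGR and NR4A genes and 7 of 9 IER, KLF and small MAF genes were among the 22. Ier5 was at 877, 1262 and 855 CPM in LP WT and 152, 231 and 203 in ML WT (2.35 ± 0.26, adjusted p = 1.4e-06). Fos, Junb and Hsph1 were lost without LP WT mouse 2, Fos and Hsph1 also without ML WT mouse 1 or 3, and Hsph1 and Nr4a1 without LP WT mouse 3. Nr4a1 was also lost without ML WT mouse 2, and Socs3 without any 1 of these 6 libraries except LP WT mouse 2. Socs3 was also lost with RLE in place of TMM scaling (adjusted p = 0.053) and with no filter on low counts (0.079). Hsph1 was also lost in a fit of only the groups compared (0.079). Between WT LP and WT basal cells, 7 genes were higher in LP and 6 lower, against 17.3% and 19.8% of all genes. Klf6 was at 706, 1017 and 1050 CPM in basal WT against 4598 to 8959 in LP WT and led the first with 2.78 ± 0.28 (adjusted p = 1.2e-07), beside Jun, Jund, Fos, Ier2, Ier5 and Zfp36. Nr4a3, Nr4a2, Egr2, Dusp2, Maff and Socs3 were lower in LP. Of these, Fos was lost without basal WT mouse 1 or LP WT mouse 2, Nr4a2 without basal WT mouse 2, Egr2 without basal WT mouse 3, and Maff without basal WT mouse 2 or LP WT mouse 3. Fos and Egr2 were also lost in a fit of only the groups compared (adjusted p = 0.099 and 0.051).

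Between KO LP and KO ML, 2 genes were higher in LP and 0 lower, against 5.33% and 10.5% of all genes. They were Ier3, at 995, 800 and 706 CPM in LP KO (1.39 ± 0.29, adjusted p = 0.0023) and Ier5, at 605, 513 and 669 CPM in LP KO and 349, 291 and 246 in ML KO (1.01 ± 0.25, adjusted p = 0.0092), the latter not without ML KO mouse 3 (adjusted p = 0.063). The count was 6 without ML KO mouse 1, 4 without LP KO mouse 2 and 1 without ML KO mouse 3. Libraries of these populations share mice, and with the mouse as a block 8 genes passed. Fosl1, Ier2, Ier3, Ier5, Maff and Dusp5 were then higher in LP, and Klf2 and Dusp2 lower. The test of the change between genotypes is the LP and ML interaction, in which 12 genes passed. KO ML against KO basal gave 16 lower and 1 higher, Klf6, which was lost without ML KO mouse 1 or 2 or any 1 basal KO mouse, against 20.4% and 18.1% of all genes. That total of 17 was 10 without ML KO mouse 2 or 3 and 11 without basal KO mouse 3. KO LP against KO basal gave 4 higher and 10 lower, against 21.4% and 23.6% of all genes. Calls of Ier2, Jund, Ier5, Maff, Egr3 and Nr4a1 were each lost without at least 1 library. The total of 14 was 10 without basal KO mouse 3 or LP KO mouse 3. Nr4a3 was at 327, 266 and 277 CPM in basal KO and 24.9, 33.9 and 4.51 in LP KO. It was lower than in KO basal cells, with log2 fold changes of -3.78 in LP and -3.28 in ML (adjusted p = 2.5e-06 and 1.5e-05).

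Genes around these programs were taken from lists of the same pathways. Their counts stand beside 11.8% of all genes higher and 3.5% lower in ML KO, 8.28% and 6.63% in LP KO, and 2.96% and 0.188% in basal KO. Of 34 tested stress and serum response genes outside the 33, 13 were higher and 1 lower in ML KO, 1 higher and 5 lower in LP KO, and 0 changed in basal cells. In ML the lowest p-values were those of Ccn2, Arc and Ptgs2, with log2 fold changes of 6.29, 3.76 and 5.05, and in LP the 5 were Tob1, Btg2, Sgk1, Per1 and Zfp36l2. Zfp36l2 and Per1 went opposite ways, as Klf6 did: Zfp36l2 had log2 fold changes of -1.13 in LP and 1.47 in ML, and Per1 of -1.15 and 0.86. Of 15 other feedback inhibitors, Dusp14 and Spry2 were higher in ML KO (3.15 and 2.29), 0 passed the test in LP, and Dusp8 was higher in basal KO (0.91). Of 20 upstream kinases and factors, 3 were lower in LP KO (Map3k1, Mapk9 and Mrtfb), and in ML KO Map3k5 was higher and Mapk9 lower. Of 28 other chaperones, 5 were higher and 5 lower in LP KO, 2 were higher in ML KO and 0 changed in basal cells. In LP, the cytosolic Hsp90aa1 was lower (-0.99 ± 0.26, adjusted p = 0.017) and the small heat shock gene Hspb8 higher (5.08 ± 0.39, adjusted p = 2.6e-07).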

How the data were processed

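Libraries were made from total RNA with a TruSeq RNA kit, per the labels' protocols. The authors deposited whole-number read counts per gene, made with featureCounts on mm10, per the submitters' processing notes. No label names the aligner, annotation, strand setting or versions, so a gene and an antisense partner cannot be told apart. Values of the joint table matched those of the separate files in 18 of 18 libraries, and each column matched a sample (0 without one). Symbols were matched by gene identifier for 25275 of 27179 genes. The 33 members and all gene lists were chosen with earlier results of these data known.

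Genes were filtered with filterByExpr, which left 16466, and scaled with TMM. edgeR 4.0.16 quasi-likelihood fits (R 4.3.3, bias-adjusted deviances, robust) used all 18 libraries with 1 mean per group. SE is the log2 fold change divided by the root of F. P-values were adjusted by Benjamini-Hochberg over all tested genes within a contrast. The biological coefficient of variation was 33.3%. Labels say that each group holds individual mice. Total counts of 5.97 M to 39.19 M set the precision of low genes. Scripts were tested on simulated data. Values in every library are given for members called between genotypes and, for most contrasts, the 3 of lowest p. From other lists up to 3 genes of lowest p per comparison were named. Ptprc, Btg2, Sgk1, and Per1 and Zfp36l2 in ML, were chosen after their values were seen, as were the other members given in full.

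Numbers of mice are shared by populations of 1 genotype, per the labels, and same-mouse libraries correlated over 0.1 in 17 of 18 pairs (0.09 to 0.33). KO and WT mice of the same number are different animals. Alternatives were RLE scaling, no filter, a replicate block, only the groups compared, libraries thinned to the smallest, DESeq2 1.42.0 and leaving out each library. edgeR's default quasi-likelihood settings were added after the data were seen. Figures were drawn with matplotlib 3.10.9.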

Additional observations from a re-analysis of the deposited data

Results flagged for a closer look

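The genotype effect (log2 fold change of KO over WT) differed between populations, by an interaction term of the edgeR fit, for the genes named here. The value is the effect in the first population minus that in the second. In LP minus ML it was -5.55 for Nr4a2, -5.37 for Egr3, -3.93 for Nr4a3 and -3.16 for Egr2. For the feedback genes it was -2.85 for Dusp6, -2.04 for Dusp1 and -1.72 for Zfp36. It was -2.30 for Klf6, -1.82 for Ier3 and -1.34 for Ier5, and for the AP-1 subunits -2.88 for Fosl1 and -1.73 for Fosl2. In ML minus basal cells it was 4.90 for Nr4a2, 5.02 for Egr3, 2.73 for Egr2, 2.52 for Nr4a3 and 1.85 for Ier3. In LP minus basal cells it was -1.66 for Klf6. Marker sums moved with genotype as well. In ML KO libraries ML markers were lower and basal and LP markers higher than in ML WT. ML markers were at 284 to 512 CPM in LP KO against 675 to 1013 in LP WT. In basal KO, ML markers were at 170 to 201 CPM against 80.8 to 95.0 in basal WT, LP markers at 286 to 443 against 157 to 258, and basal markers at 16580 to 21900 against 21920 to 26100. The basal marker sums of basal KO and basal WT nearly touched, and 0 of 13 basal markers passed the test between them. The part of the markers in these differences was not tested.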

How the results depend on the processing

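Over all members, comparisons and settings, 163 of 1759 recomputed calls were lost and 0 changed sign, while of 3983 uncalled values 115 gained a call and 211 changed sign. With the replicate block, the count of called members was 11 in KO against WT LP (otherwise 7), 8 in KO LP against KO ML (otherwise 2), 4 in the LP minus basal interaction (otherwise 1) and 9 in the ML minus basal interaction (otherwise 5). In ML the replicate block kept the 11 higher genes and added Fosb and Jund as lower. For KO against WT, where a number joins different mice, the block has no base in the design; between populations of 1 genotype it is the mouse. DESeq2 called 13 in KO against WT LP, 4 in KO LP against KO ML and 4 in the LP minus basal interaction, and the fit of only the groups compared called 0 in the last. The cause of these differences was not tested. Leaving out 1 library gave 0 to 2 called members in KO against WT basal, 6 to 11 in KO against WT ML, 1 to 6 in KO LP against KO ML, 10 to 14 in KO ML against KO basal and 0 to 3 in the LP minus basal interaction. Limits were set by 3 mice a group and by few reads for Nr4a2 and Egr3 in ML WT.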
